A study of Sus scrofa with 6 samples.

Results

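Sodium, calcium and pacemaker channels were examined in the ventricular myocardium of minipigs with chronic pressure overload. The genes were 7 listed by name: SCN4B, CACNA1C, CACNA1G, CACNB2, CACNA2D1, HCN2 and HCN4. They were taken from a table of 13288 genes by their symbol. The symbols of CACNA1G, CACNB2, CACNA2D1 and HCN2 were found, which is 4 of the 7. CACNA1C was found by its Ensembl identifier, since its row carried no symbol. SCN4B and HCN4 had no row in the table used here, by symbol, by identifier or by position, and were not analysed here. The table lists genes with at least 0.500 FPKM in their highest sample, but the cardiomyocyte markers MYH6 and PLN also had no row. A missing row therefore gives no level and is no sign of a low one.

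RNA was sequenced from 3 sham and 3 DAC minipigs. All animals were male Tibetan minipigs, whose age is not given in the sources used here. In the DAC group, a suture narrowed the descending aorta, and the sham group had the same opening of the chest without the constriction. The hearts were taken in week 12 after the operation. The samples are named sham replicates 1 to 3 and DAC replicates 4 to 6, with 1 minipig each. In such whole tissue, fewer cells of a type and less RNA per cell cannot be told apart.

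Voltage-gated sodium channels carry the upstroke of the ventricular action potential, and their beta subunits, such as the product of SCN4B, tune gating. L-type calcium channels carry the calcium entry that triggers contraction. Their pore is encoded by CACNA1C in the ventricle, the intracellular beta subunit by CACNB2 and the extracellular alpha-2-delta subunit by CACNA2D1. T-type calcium channels, among them CACNA1G and CACNA1H, open at more negative voltages and are known from nodal and fetal heart cells. HCN channels carry the pacemaker current. HCN4 is the main form of the sinus node, and HCN2 is found in ventricular muscle.

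None of the 4 channel genes that could be tested was called as different between the DAC and sham groups, and the intervals of their differences were wide. The values are FPKM, the fragments of a gene scaled by its length and by the total mapped, as deposited. Differences are between means of log2(FPKM + 1), tested with limma in the 11029 genes that reached 1 FPKM in 3 or more samples. A gene was called at an unadjusted P under 0.05. Of the genes tested, 8.51% were called, 3.25% with a higher and 5.27% with a lower level in the DAC group. Among CACNA1C, CACNA2D1, CACNB2 and HCN2, 0 of 4 were called. The DAC samples lay entirely above or below the sham samples in 14.9% of the genes tested, and in 0 of these 4. A list of 4 genes is too short for counts of 0 to differ from these shares. Over the whole table, 0 genes reached an adjusted P under 0.05 (limma with Benjamini-Hochberg adjustment), against 939 at the unadjusted P. The smallest adjusted P was 0.106.

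**Figure D1:**
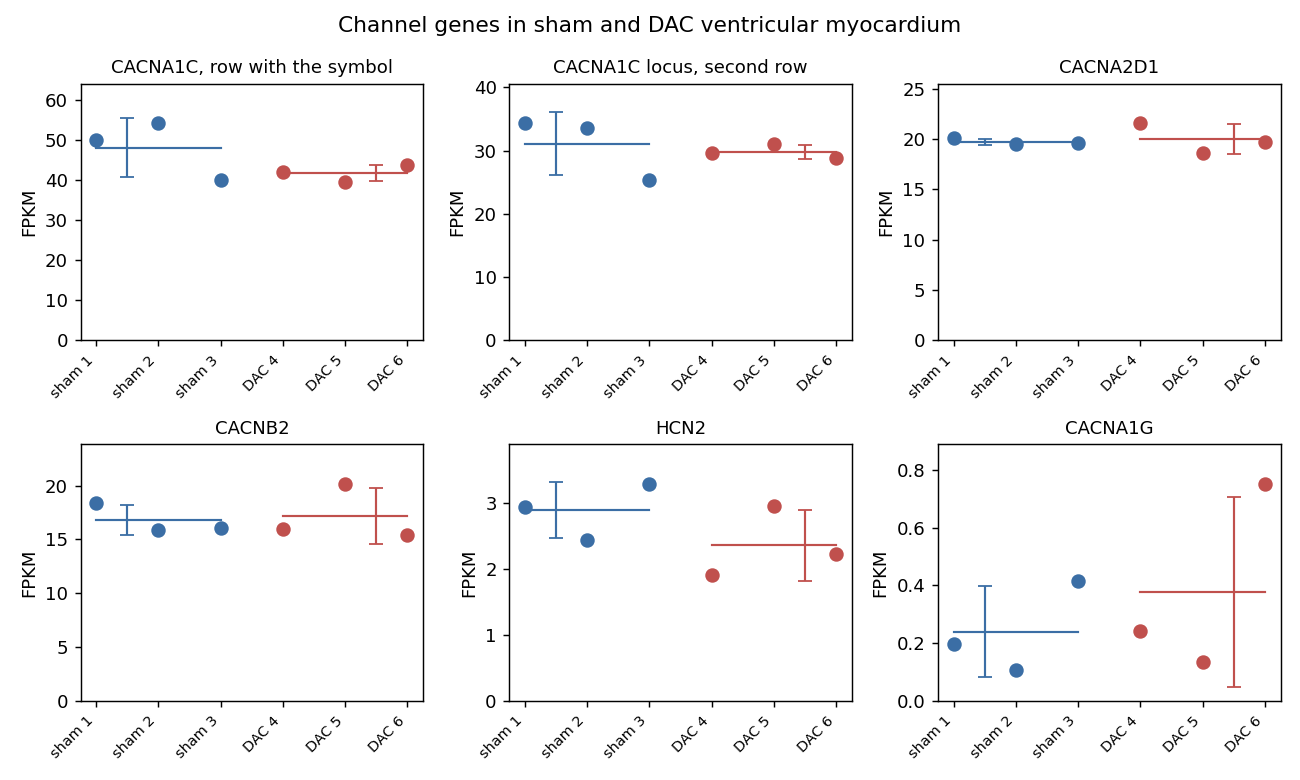
FPKM (y axis, from 0) of each channel gene in each minipig (x axis; blue sham, red DAC). Horizontal lines are group means and error bars the SD of 3 minipigs, and the groups overlap in each panel.

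The pore gene of the L-type channel, CACNA1C, has its RefSeq position at chr5:69016954-69448428 on Sscrofa11.1, and 2 rows of the table overlap it. The row whose identifier carries the symbol, ENSSSCG00000041764, covers 29.9 kb at chr5:69418543-69448455, the downstream end of the locus. The other row, ENSSSCG00000027725, has no symbol and covers 381.9 kb at chr5:69017664-69399613. Both rows are protein-coding and on the plus strand. Whether the row without a symbol belongs to CACNA1C is not known from the table, so its values are given as those of a second row at the locus. The row with the symbol was at 50.0, 54.3 and 39.9 FPKM in sham replicates 1 to 3. It was at 42.1, 39.6 and 43.7 FPKM in DAC replicates 4 to 6. Sham replicates 1 and 2 were above the DAC samples, whereas sham replicate 3 lay among them. Mean levels were 48.1 ± 7.38 FPKM for sham and 41.8 ± 2.06 FPKM for DAC (SD, n = 3 each). This gave a log2 fold change of -0.19 with a standard error of 0.13 (95% interval -0.51 to 0.13, adjusted P = 0.710 from limma). Without sham replicate 3 it was -0.31 and the gene was called (adjusted P = 0.841 from limma), whereas without sham replicate 2 it was -0.096 without a call.

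The second row of the CACNA1C locus was at 34.4, 33.6 and 25.3 FPKM in the sham samples. It was at 29.6, 31.0 and 28.8 FPKM in the DAC samples. Sham replicate 3 was again the lowest of its group, here also below the DAC samples. On the log2 scale the DAC mean differed by -0.05 from the sham mean, with a standard error of 0.14 (limma, adjusted P = 0.939). The level of the downstream row divided by that of the upstream row was 1.45, 1.62 and 1.57 in the sham samples and 1.42, 1.28 and 1.51 in the DAC samples. The difference in this log2 ratio was -0.14 (exact two-sided permutation P = 0.20). With 3 minipigs against 3, the smallest P that this test allows is 0.10.

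CACNA2D1 (ENSSSCG00000015402, chr9:97780742-98266573), the alpha-2-delta subunit, which helps carry the channel to the membrane, was the steadiest of these genes. It was at 20.1, 19.5 and 19.6 FPKM in the sham samples and at 21.6, 18.6 and 19.7 FPKM in the DAC samples. The highest and the lowest sample were both DAC samples, so the sham values lay within the DAC range. The highest sample was 1.16 times the lowest, and 3.41% of the genes tested had a smaller such ratio. CACNA2D1 had a log2 fold change of 0.02 with a standard error of 0.10 (adjusted P = 0.971 from limma). On the scale of FPKM + 1, the 95% interval of the difference ran from -14.0% to 19.1%. Changes of a size inside that interval remain compatible with these samples.

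CACNB2 (ENSSSCG00000011040, chr10:44421666-44885424) encodes the beta subunit that binds the pore from inside the cell. It was at 18.4, 15.9 and 16.1 FPKM in the sham samples and at 16.0, 20.2 and 15.4 FPKM in the DAC samples. DAC replicate 5 was the highest and DAC replicate 6 the lowest of the 6. CACNB2 had a log2 fold change of 0.03 with a standard error of 0.13 (adjusted P = 0.965 from limma), and the 95% interval ran from -18.0% to 26.6%. The direction changed to -0.09 without DAC replicate 5 and was also below 0 without sham replicate 2 (-0.0080) or sham replicate 3 (-0.00066). The row shares 2976 bases with NSUN6, a gene on the opposite strand that was between 0.668 and 1.12 FPKM. Whether the authors counted reads by strand is not given in the sources used here.

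HCN2 (ENSSSCG00000033442, chr2:77708161-77730881) encodes a pacemaker channel subunit, and was present at a low level. It was at 2.94, 2.45 and 3.30 FPKM in the sham samples and at 1.91, 2.96 and 2.22 FPKM in the DAC samples. DAC replicates 4 and 6 were below the sham samples, whereas DAC replicate 5 lay between sham replicates 1 and 3. Mean levels were 2.90 ± 0.427 FPKM for sham and 2.37 ± 0.538 FPKM for DAC (SD, n = 3 each). HCN2 had a log2 fold change of -0.22 with a standard error of 0.15 (adjusted P = 0.708 from limma), and the 95% interval ran from -33.0% to 10.4% on the scale of FPKM + 1. With 1 sample left out in turn, the log2 fold change was between -0.34 (without DAC replicate 5) and -0.12 (without DAC replicate 4). No such fit called HCN2.

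HCN2 shares 3470 bases with POLRMT, the mitochondrial RNA polymerase gene, which lies on the opposite strand. POLRMT was at 5.38, 4.92 and 5.46 FPKM in the sham samples and at 4.02, 5.16 and 4.11 FPKM in the DAC samples. In both genes sham replicate 3 was the highest and DAC replicate 4 the lowest. POLRMT had a log2 fold change of -0.21 (adjusted P = 0.651 from limma). The part of shared reads in the level of HCN2 was not tested. HCN3, another subunit of the family, was between 0.551 and 0.880 FPKM, under the minimum for the test. Its means were 0.658 FPKM in the sham and 0.663 FPKM in the DAC group.

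CACNA1G (ENSSSCG00000017562, chr12:26844079-26912054), a T-type pore gene, was near the lower end of the table. It was at 0.199, 0.107 and 0.415 FPKM in the sham samples and at 0.243, 0.136 and 0.753 FPKM in the DAC samples. DAC replicate 6 was the highest sample, and DAC replicates 4 and 5 lay within the sham range. The gene was under 1 FPKM in all 6 samples and was left out of the fit. The exact two-sided permutation P on log2(FPKM + 1) was 0.60. A pattern at this level rests on few fragments, whose number is not known.

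FPKM is scaled by length, so levels may be compared between genes, but only roughly. The 2 rows at the CACNA1C locus differed, so a level or rank of CACNA1C depends on the row used. Averaged over the 6 samples, the order was the CACNA1C row with the symbol (44.9 FPKM), its second row (30.5 FPKM), CACNA2D1 (19.9 FPKM), CACNB2 (17.0 FPKM), HCN2 (2.63 FPKM) and CACNA1G (0.309 FPKM). Neighbours in this order kept their order in 6 of 6 samples, except CACNA2D1 and CACNB2. These overlapped, with CACNA2D1 higher in 5 of 6 samples. The CACNA1C row with the symbol stood at rank 789 of the 13288 genes of the table and the second row at rank 1196. HCN2 stood at rank 8457 and CACNA1G at rank 12994. The group means gave the same order in the sham and in the DAC group.

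**Figure D2:**
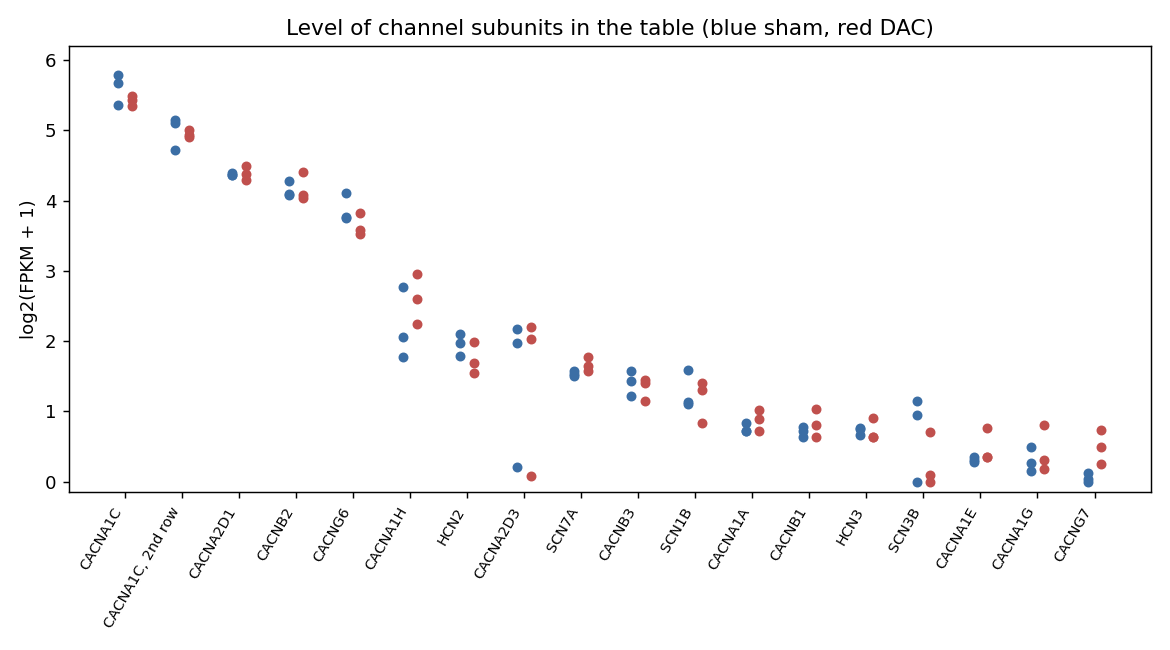
Level of the channel subunits reported here as log2(FPKM + 1) (y axis), in order of its mean (x axis), with a point for each minipig (blue sham, red DAC). A subunit that is counted but not reported here is left out. Among the subunits shown, the CACNA1C rows stand at the top, CACNA2D1 and CACNB2 follow, and HCN2 and CACNA1G lie far lower.

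Ratios within a sample do not depend on how the samples were scaled, and were used to ask whether subunits of the L-type channel shifted against each other. CACNB2 per CACNA1C was 0.367, 0.293 and 0.402 in the sham samples and 0.379, 0.510 and 0.353 in the DAC samples. CACNA2D1 per CACNA1C was 0.401, 0.359 and 0.490 in the sham samples and 0.514, 0.471 and 0.452 in the DAC samples. The groups overlapped in both ratios. The log2 differences were 0.22 for CACNB2 (exact permutation P = 0.50) and 0.21 for CACNA2D1 (exact permutation P = 0.30). The difference for CACNB2 ranged from 0.061 without DAC replicate 5 and 0.089 without sham replicate 2 to 0.33 without DAC replicate 6. That for CACNA2D1 ranged from 0.11 without sham replicate 2 to 0.33 without sham replicate 3. With the second row of the CACNA1C locus as the denominator, these differences were 0.077 and 0.067. CACNA1G per CACNA1C differed by 0.69 on the log2 scale (exact permutation P = 0.60). It was 0.043 without DAC replicate 6 and 0.12 without sham replicate 2, but 1.32 without sham replicate 3 and 1.21 without DAC replicate 5. After Benjamini-Hochberg adjustment over the 4 ratios, including that of the CACNA1C rows, the exact permutation P was 0.60 for each. Ratios with SCN4B or HCN4 were not computed.

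**Figure D3:**
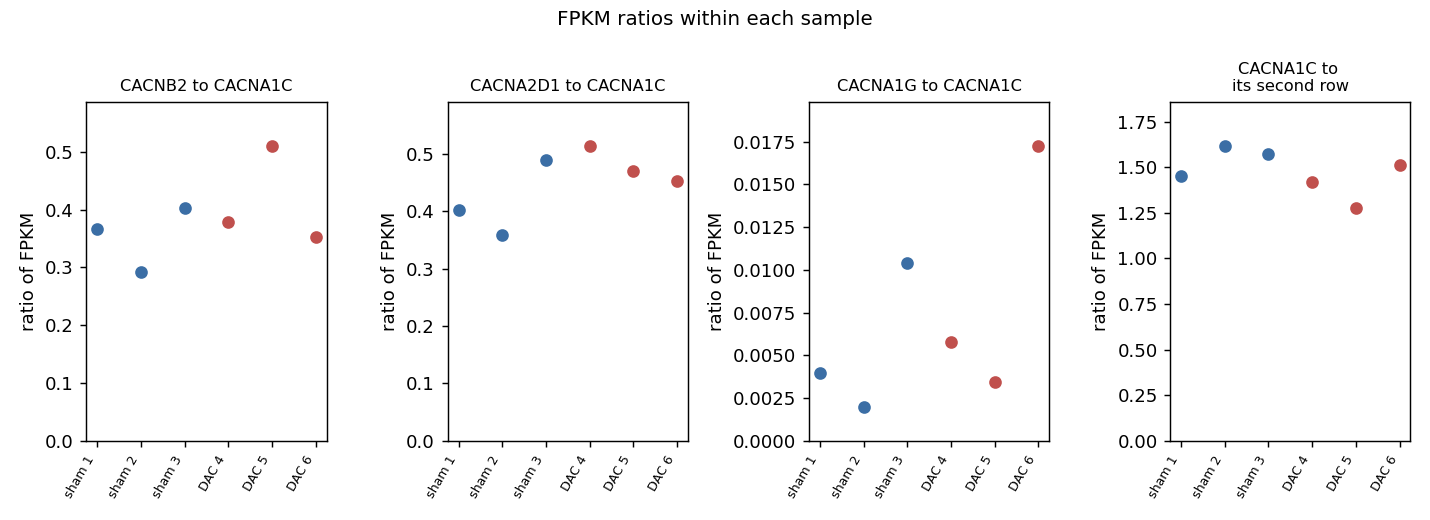
Ratio of the FPKM of a pair of rows within each minipig (y axis, from 0; x axis, minipigs; blue sham, red DAC). DAC and sham points overlap in each of the 4 panels.

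The rest of the channel families was covered by a list of 37 subunits, of which 13 had a row and 7 were tested. Of these 7, 0 were called at an unadjusted P under 0.05 (limma), against 8.51% of all genes tested. A list of 7 is also too short for a count of 0 to differ from that share. The mean was lower after DAC in 5 of them, and in 53.4% of all genes tested. The 7 had a median log2 fold change of -0.080, against -0.016 over all genes tested. CACNG6, a gamma subunit, had the highest level among the other calcium channel subunits, with 13.8 ± 2.06 FPKM for sham and 11.6 ± 1.42 FPKM for DAC (SD, n = 3 each, adjusted P = 0.666 from limma). CACNA1H, the T-type pore gene with the larger level, was at 2.41, 5.82 and 3.17 FPKM in the sham samples and at 5.03, 3.73 and 6.76 FPKM in the DAC samples. Sham replicate 2 lay among the DAC samples. For CACNA1H the log2 fold change was 0.40 (95% interval -0.28 to 1.07). Without sham replicate 2 it was 0.68 and the gene was called (adjusted P = 0.499).

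Partner proteins that regulate these channels were a list of 30 genes, of which 22 had a row and 18 were tested. Of these, 1 was called higher and 2 were called lower with DAC, beside 3.25% higher and 5.27% lower over all genes tested. The 18 log2 fold changes had a median of -0.040, against -0.016 over all genes tested. The called genes were FGF13, RANGRF and SCNM1. They were 3 of the 8 tested partners of sodium channels, beside 8.51% called over all genes tested. No set test was run on this short list. FGF13, an intracellular fibroblast growth factor homologue that binds sodium channels and shifts their inactivation, was at 6.24, 7.54 and 4.97 FPKM in the sham samples. It was at 9.25, 10.4 and 11.2 FPKM in the DAC samples, all above the sham samples. FGF13 had a log2 fold change of 0.65 with a standard error of 0.15 (adjusted P = 0.463 from limma). It was called under each alternative tried, with log2 fold changes between 0.52 and 0.77.

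RANGRF (also known as MOG1), which promotes the transport of sodium channels to the cell surface, was at 24.8, 21.7 and 24.6 FPKM in the sham samples. It was at 21.1, 18.7 and 18.3 FPKM in the DAC samples. The groups did not overlap, by a margin that was small between sham replicate 2 and DAC replicate 4. RANGRF had a log2 fold change of -0.28 (adjusted P = 0.584 from limma). It was not called after median scaling, after quantile normalization, with mitochondrially encoded genes left out or with scaling to cardiomyocyte markers, nor without sham replicate 1, sham replicate 3, DAC replicate 5 or DAC replicate 6, where its log2 fold change was between -0.26 and -0.22. The row of RANGRF overlaps those of SLC25A35 and ARHGEF15. SCNM1, a splicing factor named as a modifier of sodium channel transcripts, was at 11.7, 11.5 and 10.3 FPKM in the sham samples and at 9.19, 7.47 and 9.75 FPKM in the DAC samples. Its groups did not overlap, and its log2 fold change was -0.32 (adjusted P = 0.581 from limma). SCNM1 was not called with mitochondrially encoded genes left out, with the variance of each gene on its own, or without sham replicate 1, sham replicate 2, DAC replicate 4 or DAC replicate 5. Its log2 fold change was -0.22 without DAC replicate 5 and between -0.35 and -0.28 under the other settings named.

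Of the 10 calcium channel partners with a row, 8 were tested and 0 were called (limma), against 8.51% of all genes tested. RRAD, a small GTPase that inhibits L-type channels through the beta subunit, was the highest of them. It was at 252, 163 and 244 FPKM in the sham samples and at 204, 175 and 278 FPKM in the DAC samples, with a log2 fold change of -0.01 (adjusted P = 0.996 from limma). Of the 3 tested pacemaker channel partners, 0 were called. Lists of 8 and 3 genes are too short for a count of 0 to differ from the 8.51% called over all genes tested. IRAG1 was the highest of the pacemaker channel partners with 23.4 FPKM in the sham and 22.3 FPKM in the DAC group. GPD1L was the highest of the sodium channel partners, and its DAC samples (67.0 to 81.9 FPKM) lay just below its sham samples (82.5 to 90.5 FPKM) without a call (adjusted P = 0.687 from limma).

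**Figure D4:**
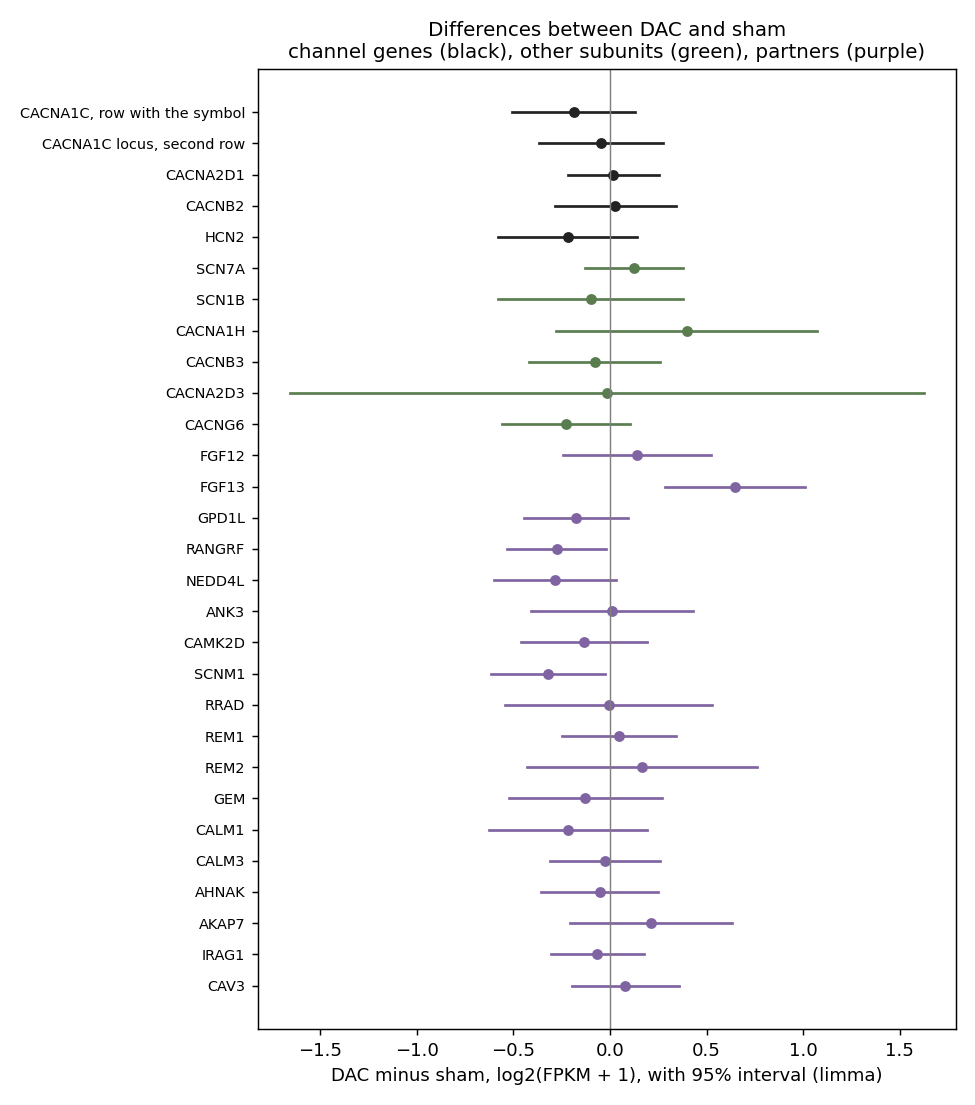
Difference between DAC and sham in mean log2(FPKM + 1) (x axis; points) with its 95% interval from limma (lines) for the rows named on the y axis: channel genes of the comparison in black, other subunits in green, partners in purple. The intervals of FGF13, RANGRF and SCNM1 leave out 0, and those of the black rows include it.

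The tissue label was checked by marker genes. Of 11 cardiomyocyte markers, 9 had a row, and their summed level was between 16527 and 17493 FPKM in the sham and between 15733 and 18950 FPKM in the DAC samples. The calcium release channel gene RYR2 was the cardiomyocyte marker that was called, and it was lower in the DAC group (log2 fold change -0.41, adjusted P = 0.585 from limma). Its groups overlapped. Without a call, log2 fold changes were 0.45 for ACTC1, 0.08 for TNNT2, 0.05 for MYL2 and 0.03 for TNNI3. They were -0.04 for TNNC1, -0.04 for MYH7, -0.09 for MYBPC3 and -0.22 for MYL3. Of 7 fibroblast markers, COL1A1, COL1A2, COL3A1 and LUM (4 genes) were called higher in the DAC group, beside 3.25% of all genes tested. The others were not called, with log2 fold changes of 0.24 for PDGFRA, -0.01 for DCN and -0.02 for TCF21. The 7 markers summed to 479 to 553 FPKM in the sham and 683 to 776 FPKM in the DAC samples. CNN1 was called higher among 6 tested markers of smooth muscle and pericytes. KDR was called higher and VWF lower among 6 of endothelium. The other endothelial markers had log2 fold changes of -0.40 (EGFL7), -0.26 (PECAM1), -0.22 (CDH5) and 0.19 (TEK) without a call. CD163 was called lower among 5 tested leukocyte markers. The other tested leukocyte markers had log2 fold changes of 0.50 (CD68), 0.26 (PTPRC), -0.09 (CSF1R) and -0.38 (CD14) without a call. Over all genes tested, 3.25% were called higher and 5.27% lower. Mitochondrially encoded genes made up 24.0% to 25.3% of all FPKM with sham surgery, 32.8% in DAC replicate 5 and 27.1% to 27.2% in the other DAC samples. With mitochondrially encoded genes left out, the log2 fold change was -0.14 for CACNA1C, -0.19 for HCN2, 0.069 for CACNB2 and 0.060 for CACNA2D1. With scaling to cardiomyocyte markers it was -0.17, -0.20, 0.047 and 0.037 in the same order. The main fit gave -0.19, -0.22, 0.03 and 0.02. No channel gene was called in either alternative. The part of the other cell types in the levels of the channel genes was not tested.

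T-type and pacemaker channels are also carried by conduction and atrial cells, and some markers of these cells differed between the samples. Of 9 conduction system markers, 6 had a row and were tested, and 2 were called higher in the DAC group, beside 3.25% of all genes tested. ETV1, a transcription factor of fast conduction tissue, was at 1.22, 3.22 and 1.93 FPKM in the sham samples and at 5.21, 3.45 and 5.28 FPKM in the DAC samples (log2 fold change 0.89, adjusted P = 0.500 from limma). TBX18, a factor of sinus node progenitors, was at 1.78, 1.59 and 1.40 FPKM in the sham samples and at 3.38, 2.81 and 2.03 FPKM in the DAC samples (log2 fold change 0.52, adjusted P = 0.511 from limma). TBX3, a repressor of the working muscle programme in the conduction system, was highest in DAC replicates 4 and 6, at up to 10.3 FPKM, and between 3.32 and 5.56 FPKM in the other samples. TBX3 (log2 fold change 0.62), GJA5 (0.23), IRX3 (0.17) and GJC1 (0.0021) were not called, and their groups overlapped. The summed level of the 6 genes was 37.1 to 50.0 FPKM in the sham and 40.1 to 65.7 FPKM in the DAC samples. CNTN2, ISL1 and SHOX2 had no row.

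The atrial light chain gene MYL4 was at 17.6 FPKM in DAC replicate 6 and 9.22 FPKM in DAC replicate 4, against 0.780 to 3.79 FPKM in the other samples. Sarcolipin (SLN), an atrial regulator of calcium uptake, was at 9.83 FPKM in DAC replicate 6 and between 0.278 and 1.44 FPKM elsewhere. DAC replicate 6 was also the sample with the highest CACNA1G and the highest CACNA1H. DAC replicate 4 was not next in either gene. There CACNA1G was at 0.243 FPKM, against 0.415 FPKM in sham replicate 3. CACNA1H was at 5.03 FPKM there, against 5.82 FPKM in sham replicate 2. HCN2 did not follow MYL4 and SLN, being lowest in DAC replicate 4 and next lowest in DAC replicate 6. Without DAC replicate 6, the log2 fold change of HCN2 was -0.19. MYL4 and SLN were the 2 of 6 atrial markers with a row, neither was called, and their summed level was 1.49 to 4.80 FPKM in the sham and 1.71 to 27.4 FPKM in the DAC samples. The part of atrial or conduction tissue in the T-type values was not tested.

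**Figure D5:**
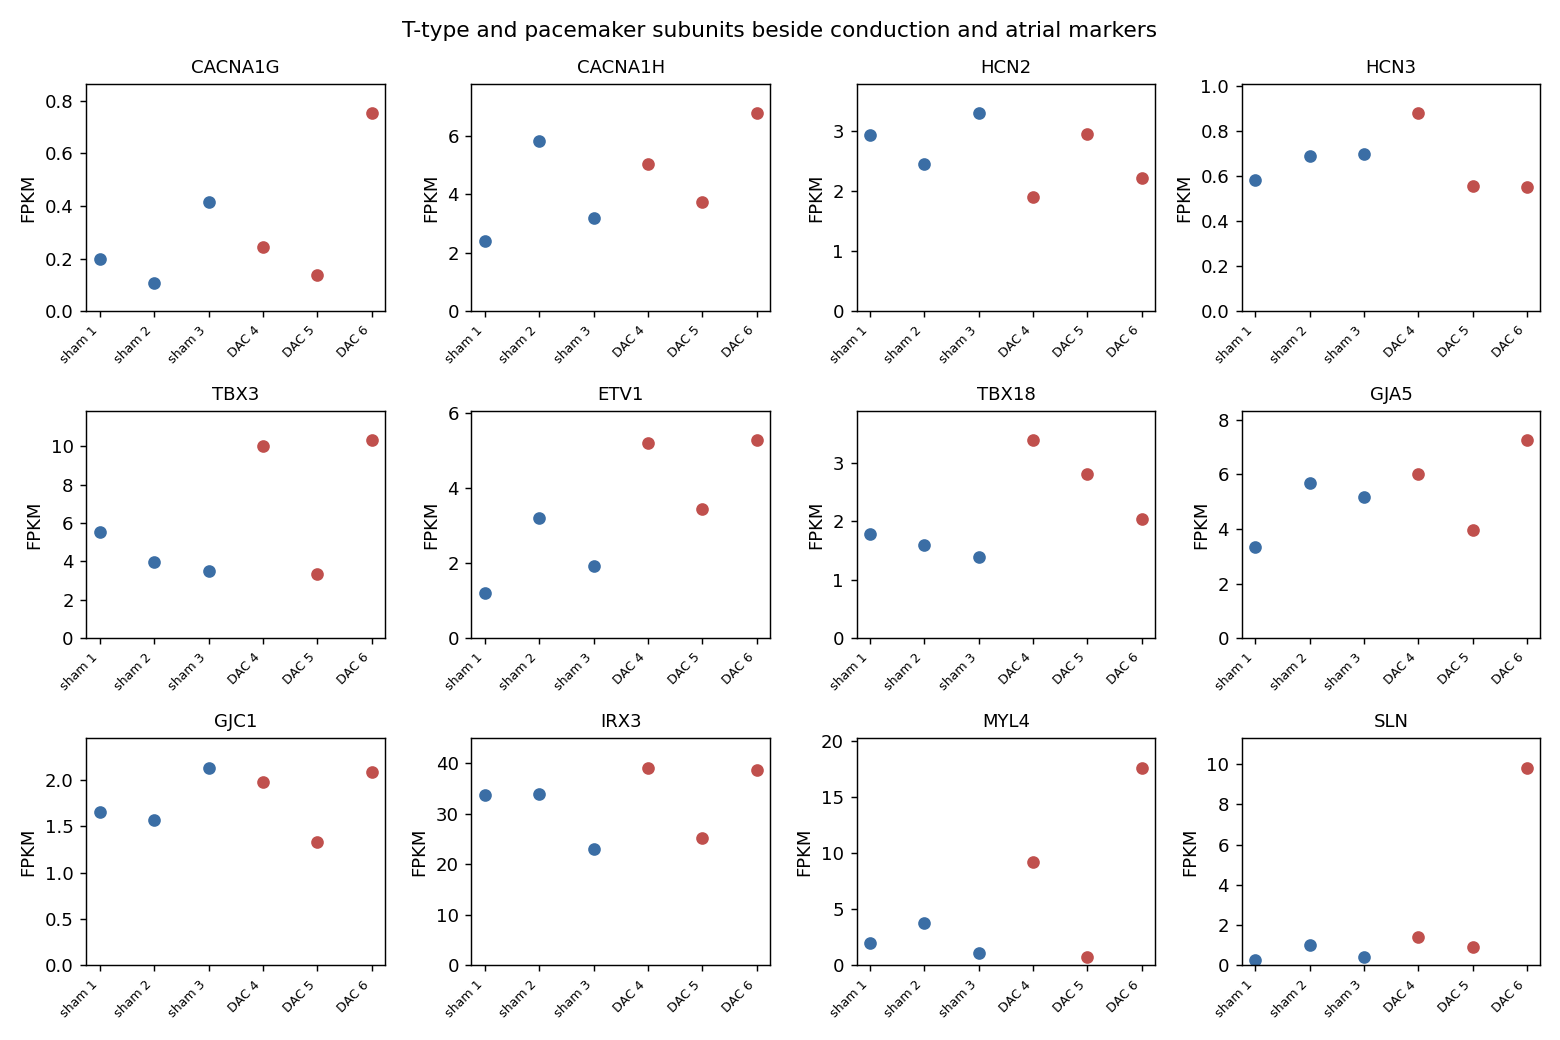
FPKM (y axis, from 0) in each minipig (x axis; blue sham, red DAC) of T-type and pacemaker subunits beside the conduction and atrial markers found in the table. DAC replicate 6 is the highest sample for CACNA1G, CACNA1H, TBX3, ETV1, GJA5, MYL4 and SLN, whereas HCN3, TBX18 and IRX3 are highest in DAC replicate 4 and HCN2 and GJC1 in sham replicate 3.

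For HCN2 and CACNA1C, the tested channel genes with the largest log2 fold changes, the genes with the nearest pattern were sought. The measure was the root mean square difference of log2(FPKM + 1) over the 6 samples, after centring each gene. Among 11029 genes and 6 samples, close patterns can arise without a link between the genes. No reference distance was computed, and shared regulation was not tested. Nearest to HCN2 were MTOR (0.0296), VARS1 (0.0323) and MARCHF8 (0.0373). Nearest to CACNA1C were EEF2K (0.0336), URGCP (0.0481) and SLC31A2 (0.0495). EEF2K, the kinase of translation elongation factor 2, was at 41.5, 44.7 and 32.0 FPKM in the sham samples and at 33.2, 31.1 and 36.5 FPKM in the DAC samples, with the same low sham replicate 3.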

How the data were processed

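NEBNext Ultra libraries of total ventricular RNA were read from both ends on an Illumina HiSeq instrument. The authors deposited FPKM for each minipig, without pooling. The submitters' processing notes name HISAT2 and susScr11 without versions, and the program that made the FPKM is not given in the sources used here. Positions lie on susScr11, the same assembly as the Sscrofa11.1 of RefSeq. Rows without a symbol took it from a table of Ensembl identifiers (520 rows). The sums of FPKM per sample were 281377 to 308771. Read depth is unknown: among at least 6520 genes under 5 FPKM, at most 6 shared a log2 ratio between samples to 4 decimals, so no steps of whole reads were seen. Precision therefore comes from the spread between minipigs.

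The analysis used R 4.3.3, limma 3.58.1 (moderated test with variance trend, pseudocount 1, two-sided), Python 3.11.15, scipy 1.17.1 and matplotlib 3.10.9, and was tested on simulated data. No batch is named in the labels. The channel genes and the gene lists were chosen with earlier results of these data known. Named genes are the channel genes, the called subunits and partners, the highest gene of each list and 3 nearest patterns for each of 2 genes. Others named (CACNA1H, HCN3, HCN2's and CACNB2's neighbours, markers, single calls under an alternative, CACNA2D3, CACNG7 and SCN3B) were chosen after their values were seen. The second CACNA1C row was added after seeing the data. No sequences were printed. A gene that the rule also names is counted in its list and not reported here.

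Alternative settings covered the filter (none, or at least 5 FPKM), the scaling (to the median, by quantiles, to cardiomyocyte markers, or with mitochondrially encoded genes left out), the pseudocount (0.1), the variance (estimated gene by gene, without moderation), weights for samples, and leaving out each sample in turn.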

Additional observations from a re-analysis of the deposited data

How the results depend on the processing

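Under the 9 alternatives that kept the 6 samples, 0 channel genes were called, and with 1 sample left out between 0 and 1 (CACNA1C without sham replicate 3). The log2 fold change turned its sign for CACNB2 (-0.0080 and -0.00066 when sham replicate 2 or 3 was left out, -0.087 without DAC replicate 5, in a range up to 0.096) and for CACNA2D1 (-0.037 without DAC replicate 4, up to 0.065). For the second CACNA1C row it was 0.0088 after quantile normalization, 0.030 without sham replicate 1 and 0.012 without sham replicate 2, from -0.18. HCN2 and CACNA1C kept their direction under the alternatives run, and HCN2 could not be fitted with a minimum of 5 FPKM. Of the other subunits, 1 was called with no filter (CACNG7), and between 0 and 1 with 1 sample left out. Of the partners, 1 was called with mitochondrially encoded genes left out (FGF13), and between 1 and 3 with 1 sample left out. An adjusted P under 0.05 was reached by 1 gene without sham replicate 3 and by 1 gene without DAC replicate 6. The genes called in the whole table numbered 939, against 579 with a minimum of 5 FPKM, where fewer genes were tested, and 600 to 1029 with 1 sample left out (600 without sham replicate 1). Of the 939, 581 were lower in the DAC group, against 408 of 910 with mitochondrially encoded genes left out. The cause of these changes was not tested. The 3 ratios of subunits kept their direction. The number of fragments behind genes under 1 FPKM, such as CACNA1G and HCN3, is unknown.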

Other observations

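CACNA2D3, an alpha-2-delta subunit outside the list of 7, fell into separate levels that did not follow the groups. It was at 2.94 and 3.50 FPKM in sham replicates 1 and 3 and at 3.07 FPKM or more in DAC replicates 5 and 6. In sham replicate 2 it was at 0.159 FPKM and in DAC replicate 4 at 0.0563 FPKM. Its log2 fold change was -0.02 with a standard error of 0.70 (adjusted P = 0.997 from limma).

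CACNG7, a gamma subunit, was at 0.0249 and 0.0863 FPKM in sham replicates 1 and 2 and was listed at 0 in sham replicate 3. It was at 0.406, 0.192 and 0.670 FPKM in the DAC samples. All values are under 1 FPKM. With no filter on FPKM the gene was called, with a difference of 0.44 in mean log2(FPKM + 1) (adjusted P = 0.577 from limma). At such levels the pseudocount of 1 makes this difference much smaller than the log2 ratio of the FPKM values. SCN3B, a sodium channel beta subunit, was at 0.940 and 1.22 FPKM in sham replicates 1 and 2 and at 0.0699 and 0.629 FPKM in DAC replicates 4 and 5. It was listed at 0 in sham replicate 3 and DAC replicate 6.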
